A study of Mus musculus with 11 samples.

Results

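The genes described here encode the PI3K, AKT and mTOR signalling pathway downstream of the insulin receptor. They were chosen by a list of 35 gene symbols, and all 35 were found among the 46202 rows of the expression table. All 35 had a value in each of the 11 libraries and all 35 passed the filter on low signals. RNA of the hippocampus, a brain region that serves learning and memory, was sequenced after insulin or saline had been given through the nose. The series is titled for insulin, long-term potentiation and the fuel preference of astrocytes. All animals were male C3-C57B1/6J mice of 2 to 3 months, housed singly and anaesthetized with isoflurane before the brain was taken. The 4 groups were saline with the time label 0 min (n = 3 libraries), insulin at 15 min (n = 2), insulin at 1 h (n = 3) and insulin at 6 h (n = 3), with 2.4 IU of insulin per nare. The titles name saline for the controls whereas their treatment label reads untreated, and no group has saline at 15 min, 1 h or 6 h. The 15 min group holds replicates 1 and 3, and its replicate 2 was not analysed here. The labels give 3 animals per time without stating that each library is 1 animal, so a p-value measures the spread between these libraries.

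Insulin binds a receptor tyrosine kinase whose adaptors recruit PI3K, a lipid kinase made of a catalytic and a regulatory subunit. The lipid it makes brings the kinases PDK1 and AKT to the membrane, and AKT then inhibits GSK3, FOXO transcription factors and the TSC complex. Inhibition of TSC frees the small GTPase RHEB to activate mTORC1, which phosphorylates S6 kinases and translation repressors. Most of this relay works by phosphorylation of proteins already present, which RNA levels do not record, whereas FOXO factors act on transcription. In neurons the pathway takes part in synaptic plasticity and dendritic protein synthesis.

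Promoters were read for 31 of the 35 genes, which together have 45 start sites in the RefSeq table of GRCm38.p6. Each window runs from 250 bases before to 50 bases after a start site. The windows of Ptpn1 and Mlst8 are shown because these genes had the smallest p among the 35 genes at 1 h, in opposite directions. Both are printed on the strand of the gene, and capitals mark the GC box GGGCGG or its reverse complement CCGCCC.
Ptpn1, chr2:167932077-167932376, plus strand: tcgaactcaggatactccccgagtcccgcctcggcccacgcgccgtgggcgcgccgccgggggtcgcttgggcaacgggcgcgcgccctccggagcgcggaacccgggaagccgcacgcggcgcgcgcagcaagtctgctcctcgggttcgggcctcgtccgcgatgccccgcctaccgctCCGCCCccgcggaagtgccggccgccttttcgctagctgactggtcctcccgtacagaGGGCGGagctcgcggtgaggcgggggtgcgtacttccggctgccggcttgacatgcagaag
Mlst8, chr17:24479029-24479328, minus strand: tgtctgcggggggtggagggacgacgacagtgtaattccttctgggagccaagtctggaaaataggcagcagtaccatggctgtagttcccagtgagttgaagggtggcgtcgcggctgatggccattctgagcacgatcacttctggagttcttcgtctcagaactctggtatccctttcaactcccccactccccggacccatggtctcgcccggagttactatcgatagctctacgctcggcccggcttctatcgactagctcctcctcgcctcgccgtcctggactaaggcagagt
The Ptpn1 window holds 2 GC boxes and has a GC content of 74.0%, whereas the Mlst8 window holds none and has 57.7%. A GC box was found in 27 of the 45 windows (60%), which belong to 23 genes, against 35.7% of the 32851 promoter windows of all genes. The median GC content was 58.7% in the 45 windows, against 52.7% in all windows. The FOXO element TGTTTAC, searched on both strands, occurred in 1 window (2.22%), that of Akt1, against 3.65% of all windows. The E-box CACGTG occurred in 1 window (2.22%), that of Rheb, against 7.15% of all windows. The cAMP response element TGACGTCA occurred in none of the 45 windows, against 1.79% of all windows. None of these letters overlapped another motif in the 2 windows printed, and a match is a description of sequence only. No promoter was matched for Foxo6, Deptor, Eif4ebp1 and Rps6kb2.

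The deposited values are log2 signals that had been forced to 1 shared distribution, with a minimum of -13.64, a median of -3.20 and a maximum of 16 in every library. Base 2 is taken for the logarithm, since the base is not stated in the sources used here. Depth is unknown, and 32037 to 33653 rows per library hold a value. Because division by gene length is not stated, levels are compared between libraries and never between genes. Insulin libraries had a lower signal than saline libraries for the 18S ribosomal RNA row Rn18s-rs5 (9.67 to 12.2, against 13.0 to 16), and its part in the results was not tested. The numbers that end the column names run by group, so an effect of what they count and one of insulin cannot be told apart. None of the markers of 11 cell types and regions passed the limma test in any of the 3 comparisons with saline. All 7 markers of hippocampal pyramidal and granule neurons had a value in every library, with a summed log2 signal of 2.5 to 3.09. The 6 striatum markers also had one (1.68 to 3.24). Summed choroid plexus markers ran from 0.44 to 7.07 on the log2 scale across libraries, and summed interneuron markers from 4.36 to 5.49. For the sum of hippocampal neuron markers every 1 h library (2.5 to 2.61) lay below every saline library (2.82 to 3.06). Single markers of this list did not share a direction at 1 h. C1ql2 was lower in every 1 h library (1.40 to 1.75) than in every saline library (2.05 to 2.32). Wfs1 was higher in every 1 h library (-0.45 to 0.22) than in every saline library (-0.60 to -0.56). For the sum of striatum markers both 15 min libraries (2.5 and 2.64) lay above saline (1.68 to 2.25). Single markers of this list also differed in direction. Both 15 min libraries lay above saline for Drd1 (0.77 and 1.00, against -0.93 to 0.32). Both lay below saline for Drd2 (-3.02 and -2.61, against -2.43 to -2.18). These single markers were named after their values were seen. Every 6 h library lay below saline for the sum of choroid plexus markers (0.44 to 4.58, against 5.33 to 5.95). The same held for blood (6.01 to 6.33, against 6.49 to 6.8). In other comparisons of sums with saline the groups overlapped. The part of these differences in the results was not tested. In bulk tissue, fewer cells of a type and less RNA per cell cannot be told apart.

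None of the 35 genes passed the test at any time after insulin. At 15 min, 0 of 35 had a limma adjusted p below 0.05, where 0.239% of 27653 rows did. At 1 h the count was also 0 of 35, against 0.877% of 27706 rows, and at 6 h it was 0 of 35, against 0% of 27707 rows. At an unadjusted p of limma below 0.05, 0 genes were higher and 3 lower at 15 min, or 8.57% of the 35. Of all rows 15.1% passed that threshold, 1.86% higher and 13.2% lower. At 1 h 2 genes were higher and 2 lower, or 11.4%, against 15.7% of all rows (2.87% higher and 12.8% lower). At 6 h 0 were higher and 1 lower, or 2.86%, against 6.98% of all rows (2.75% higher and 4.23% lower). Insulin and saline libraries did not overlap for 6 higher and 8 lower genes at 15 min, or 40% of the 35. Among rows with a value in each library compared this held for 38%, 6.96% higher and 31.1% lower. The counts were 5 higher and 7 lower at 1 h, or 34.3%, against 27.8% of rows (6.27% higher and 21.5% lower). At 6 h they were 2 higher and 3 lower, or 14.3%, against 13.1% of rows (4.31% higher and 8.78% lower). Summed over both directions, the share at an unadjusted p was below that of all rows at each time, and the share without overlap was close to that of all rows or somewhat above it. By direction, at 15 min and 1 h the share of the 35 without overlap was above that of rows for higher genes and below it for lower genes. This holds on the deposited scale, where the median change of all rows was negative. A moderated F test over the 3 times gave a smallest adjusted p of 0.177 (Rps6kb2), where 0.365% of 27634 rows passed.

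The changes of the 35 genes were small. At 15 min, 1 h and 6 h their median log2 change was 0.0043, -0.014 and 0.040, where the median over all rows was -0.14, -0.11 and -0.039. The median size of the change, regardless of sign, was 0.14, 0.11 and 0.12 for the pathway genes, against 0.23, 0.20 and 0.17 for all rows. For the 69 other genes of the pathway described below it was 0.18, 0.16 and 0.10. These sets were not matched for signal level. The lowest and highest changes were -0.34 and 0.42 at 15 min, -0.24 and 0.35 at 1 h, and -0.28 and 0.54 at 6 h. The 95% interval of the change lay within a log2 change of 0.5 in either direction for 23, 28 and 25 of the 35 genes at 15 min, 1 h and 6 h. It lay within 1 in either direction for 33, 34 and 34 of them. Foxo6 was the exception at each time, and Foxo1 was the second exception at 15 min. Median centring of the libraries added 0.17, 0.14 and 0.034 to the log2 change of each of the 35 genes at 15 min, 1 h and 6 h, which gave 10, 13 and 0 of them the opposite sign. Cyclic loess scaling gave 6, 6 and 0 the opposite sign. Signs given for single genes are those on the deposited scale unless another scaling is named. The 3 comparisons share the same 3 saline libraries and so are not independent.

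**Figure D1:**
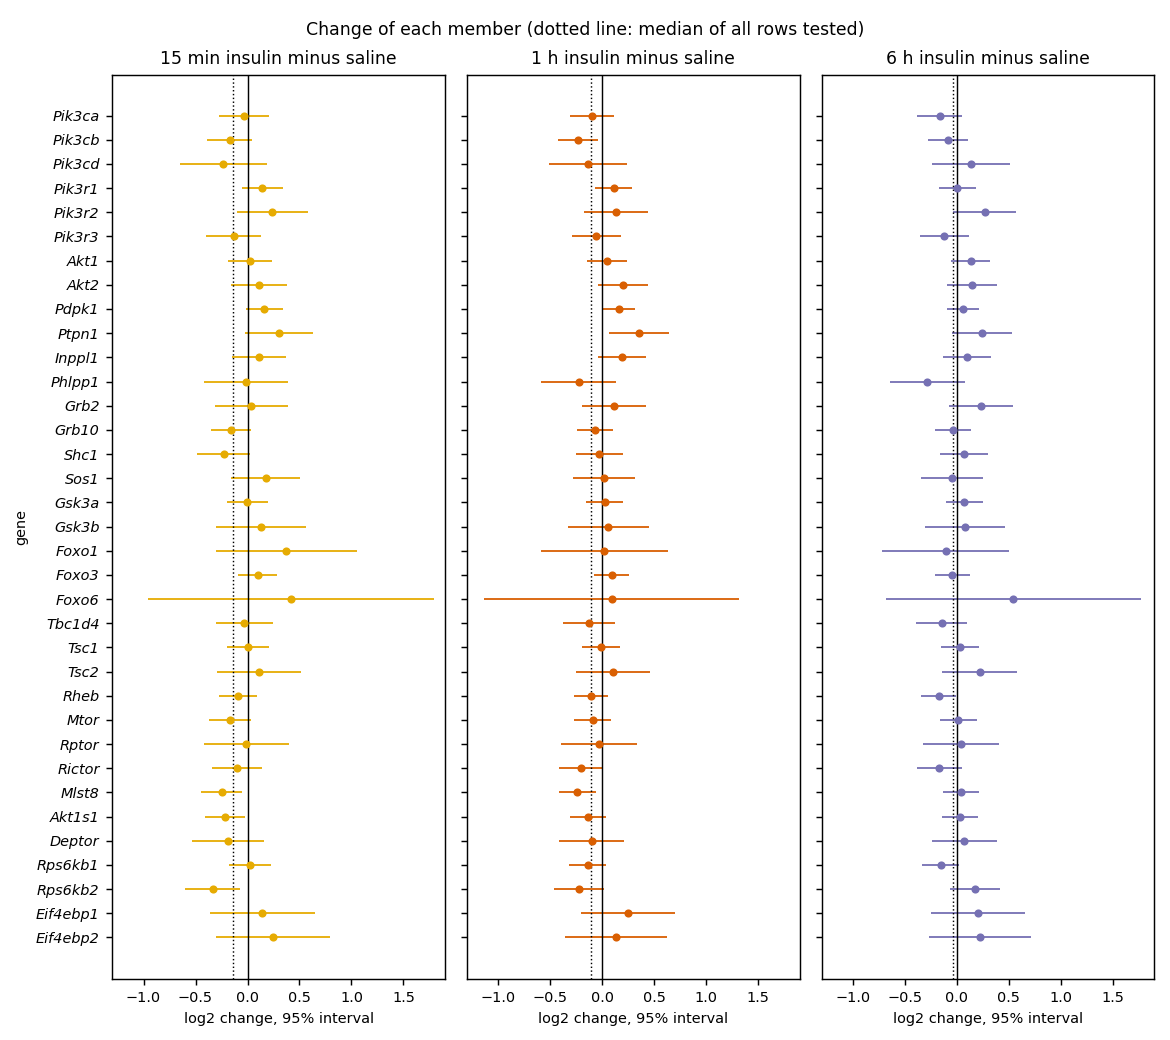
Log2 change of each of the 35 pathway genes (points) with its 95% limma interval (bars), insulin minus saline, at 15 min, 1 h and 6 h. The horizontal axis is the log2 change, the solid line marks no change and the dotted line the median of all rows tested; most points lie within 0.25 of no change and the interval of Foxo6 is the widest.

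PI3K itself was measured through 3 catalytic and 3 regulatory subunit genes. All 3 catalytic genes had negative log2 changes at 15 min (-0.23 to -0.033) and at 1 h (-0.23 to -0.099), and 2 of 3 at 6 h. Against the median of all rows, 2 of the 3 lay lower at each of the 3 times, and after median centring of the libraries 2 and 1 of 3 were negative at 15 min and 1 h, and 2 and 3 of 3 after cyclic loess. Pik3cb, the catalytic subunit that also takes signals from G protein-coupled receptors, had log2 signals of -1.57, -1.59 and -1.52 in the saline libraries, -1.76 and -1.7 at 15 min, -1.83, -1.77 and -1.78 at 1 h and -1.63, -1.62 and -1.67 at 6 h. Every insulin library lay below every saline library. For Pik3cb the log2 change was -0.17 at 15 min (SE 0.098, adjusted p = 0.435), -0.23 at 1 h (SE 0.087, adjusted p = 0.234) and -0.084 at 6 h (SE 0.087, adjusted p = 0.807). After median centring it was -0.00081 at 15 min and -0.094 at 1 h, and after cyclic loess -0.010 and -0.11.

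Pik3ca, the main catalytic subunit in insulin signalling, had log2 signals of 0.89, 0.81 and 0.95 in the saline libraries, 0.84 and 0.86 at 15 min, 0.78, 0.86 and 0.71 at 1 h and 0.87, 0.51 and 0.78 at 6 h. The groups overlapped at each time and replicate 2 of the 6 h group was the lowest library. Its log2 changes were -0.033, -0.099 and -0.17 at 15 min, 1 h and 6 h, with adjusted p of 0.912, 0.667 and 0.721 in limma. Without that library the change at 6 h was -0.060. Pik3cd, a catalytic subunit best known from leukocytes, spread over 0.58 log2 units across the 11 libraries, and its saline libraries alone ran from -1.67 to -1.09.

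The regulatory subunits hold the catalytic subunit and dock it to phosphorylated receptors and adaptors. Pik3r1 had log2 signals of 0.58, 0.53 and 0.71 in the saline libraries, 0.75 and 0.75 at 15 min, 0.63, 0.67 and 0.85 at 1 h and 0.58, 0.60 and 0.66 at 6 h. Both 15 min libraries lay above the 3 saline libraries, whereas the 1 h and 6 h libraries overlapped them. In the fit Pik3r1 had a log2 change of 0.14 at 15 min (SE 0.089, adjusted p = 0.484), 0.11 at 1 h (adjusted p = 0.558) and 0.0062 at 6 h (adjusted p = 0.987). Pik3r2 had log2 signals of 1.9, 1.79 and 1.8 in the saline libraries, 1.97 and 2.16 at 15 min, 1.91, 1.78 and 2.2 at 1 h and 1.91, 2.39 and 1.99 at 6 h. All insulin libraries at 15 min and 6 h lay above the saline libraries, and replicate 2 of the 6 h group was the highest of all. The log2 change of Pik3r2 at 6 h was 0.27 (SE 0.14, adjusted p = 0.721), and 0.12 without that library. For Pik3r3 the changes were negative at all 3 times, from -0.13 to -0.055, but 0.038 at 15 min and 0.084 at 1 h after median centring.

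AKT and the kinase that activates it stood slightly higher after insulin in each comparison, without passing the test. The log2 changes of Akt1, Akt2 and Pdpk1 were positive at all 3 times, from 0.022 to 0.16 at 15 min, from 0.045 to 0.20 at 1 h and from 0.058 to 0.15 at 6 h. Median centring raised the change of every gene and so could not turn these signs, and after cyclic loess scaling they were also positive. Without saline replicate 3 the change of Akt1 at 15 min was -0.012. Pdpk1, which encodes PDK1, had log2 signals of 0.46, 0.39 and 0.52 in the saline libraries, 0.59 and 0.65 at 15 min, 0.59, 0.68 and 0.58 at 1 h and 0.48, 0.47 and 0.60 at 6 h. The 15 min and 1 h libraries all lay above the saline libraries, and the 6 h libraries overlapped them. Its log2 change was 0.16 at 15 min (SE 0.079, adjusted p = 0.371), 0.16 at 1 h (SE 0.070, adjusted p = 0.318) and 0.058 at 6 h (SE 0.070, adjusted p = 0.832). After median centring it was 0.33 at 15 min (adjusted p = 0.155) and 0.30 at 1 h (adjusted p = 0.104).

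Akt1 had log2 signals of 1.49, 1.4 and 1.34 in the saline libraries, 1.43 and 1.42 at 15 min, 1.43, 1.48 and 1.44 at 1 h and 1.41, 1.73 and 1.48 at 6 h, and the groups overlapped at each time. Akt2, the isoform most tied to glucose uptake, had log2 signals of -1.2, -1.34 and -1.28 in the saline libraries, -1.08 and -1.25 at 15 min, -1.23, -0.97 and -1.01 at 1 h and -1.25, -1.09 and -1.04 at 6 h. At 1 h all Akt2 values but that of replicate 1 lay above the saline libraries. The largest log2 change of Akt1 was 0.13 at 6 h (SE 0.085, adjusted p = 0.731) and that of Akt2 was 0.20 at 1 h (SE 0.11, adjusted p = 0.403). Without replicate 2 of the 6 h group the change of Akt1 at 6 h was 0.039.

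Ptpn1 had the largest positive log2 change of the 35 genes at 1 h, without passing the test, although Eif4ebp1 exceeded it after cyclic loess (0.46, against 0.43) and Foxo6 without saline replicate 3 (0.46, against 0.37). It encodes the phosphatase that removes phosphate from the insulin receptor and lies on chromosome 2 from 167930750 to 167979385. Log2 signals of Ptpn1 were -0.64, -0.70 and -0.62 in the saline libraries, -0.45 and -0.26 at 15 min, -0.20, -0.41 and -0.30 at 1 h and -0.54, -0.11 and -0.60 at 6 h. All 8 insulin libraries lay above all 3 saline libraries, and the 6 h group was split, with replicate 2 far above the other 2. Compared with saline the log2 change was 0.30 at 15 min (SE 0.15, adjusted p = 0.363) and 0.35 at 1 h (SE 0.13, adjusted p = 0.228), a fold of 1.28. At 6 h it was 0.24 (SE 0.13, adjusted p = 0.721), and 0.085 without replicate 2 of that group. The smallest adjusted p that any of the 35 genes reached in any of 19 alternative settings was 0.0629, for Ptpn1 at 1 h without replicate 2 of the 6 h group.

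Inppl1 and Phlpp1 also act against the pathway, through the lipid product of PI3K and through AKT itself. The log2 change of Inppl1, a lipid phosphatase, was 0.11, 0.19 and 0.10 at 15 min, 1 h and 6 h, and its 1 h libraries all lay above the saline libraries (adjusted p = 0.407 in limma at 1 h). Phlpp1, a phosphatase of AKT, had negative changes of -0.018, -0.23 and -0.28, where the first was 0.15 after median centring and the second -0.087 without saline replicate 3. Its libraries were spread over 0.80 log2 units, and insulin and saline libraries overlapped at each time.

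The adaptor genes did not share a direction on the deposited scale. Grb2 and Sos1 link the receptor to RAS, Shc1 is a docking substrate of the receptor, and Grb10 binds the receptor and restrains it. At each of the 3 times 2 of the 4 had positive and 2 had negative log2 changes, within -0.23 to 0.23. At 1 h all 4 lay above the median of all rows, and after median centring all 4 changes at 1 h were positive (0.069 to 0.25), against 3 of 4 after cyclic loess. Both 15 min libraries of Grb10 (0.27 and 0.38) lay below the saline libraries (0.43, 0.46 and 0.55), with a log2 change of -0.16 (SE 0.087, adjusted p = 0.426), or 0.014 after median centring. Grb2 was higher in the 1 h libraries (-0.49, -0.47 and -0.40) than in the saline libraries (-0.55, -0.62 and -0.53), and its log2 change of 0.11 had an adjusted p of 0.750 in limma.

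**Figure D2:**
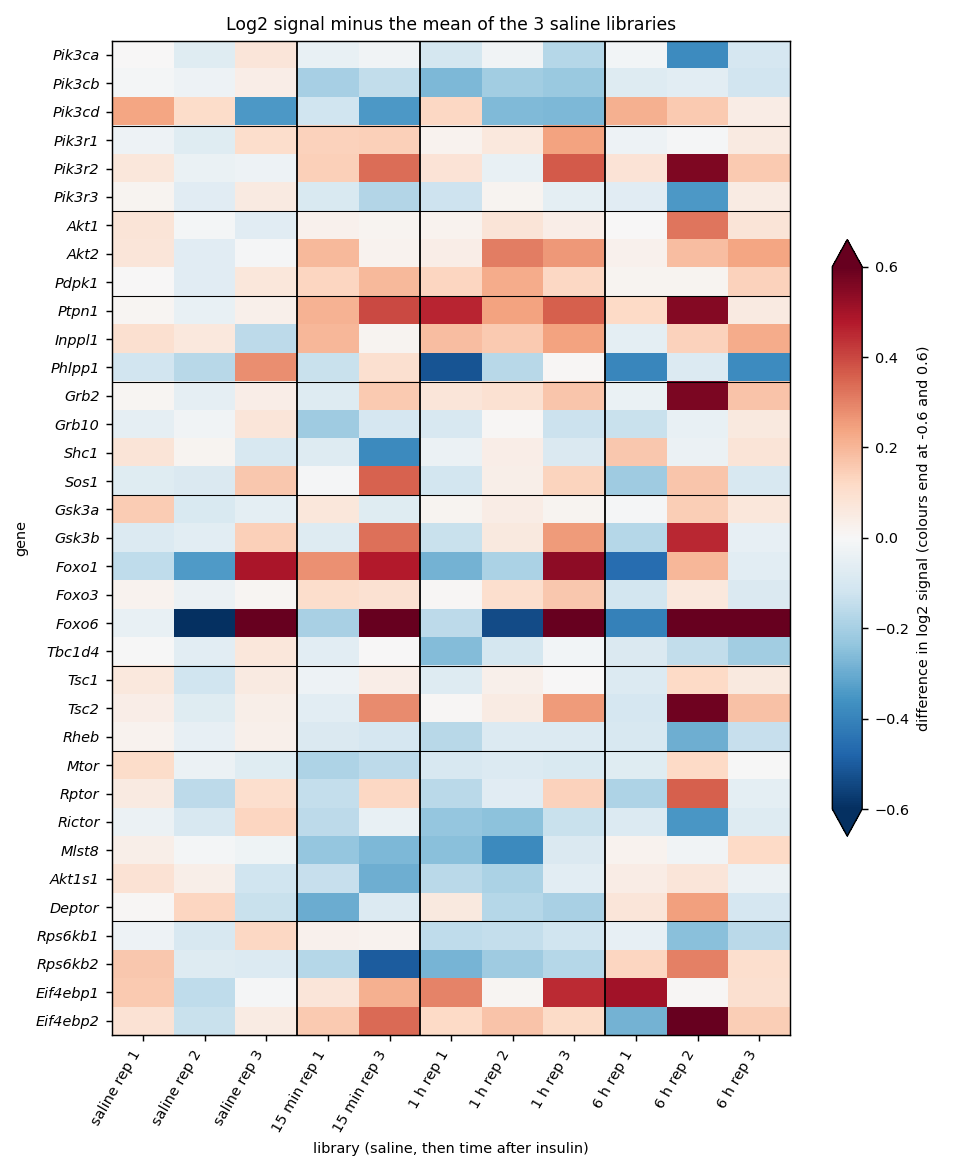
Log2 signal of the 35 pathway genes (rows, grouped by role with horizontal lines) in 11 libraries (columns; saline, then 15 min, 1 h and 6 h after insulin), shown as the difference from the mean of the 3 saline libraries. Red is higher and blue lower than that mean; replicate 2 of the 6 h group holds many of the strongest colours, and Foxo6 has strong colours in libraries of every group.

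GSK3 kinases, FOXO factors and Tbc1d4 are direct substrates of AKT outside mTORC1. Gsk3a, with a range of 0.25 log2 units over the 11 libraries, was among the steadiest of the 35 genes. Gsk3b, which restrains glycogen synthesis and takes part in synaptic depression, had log2 signals of 0.28, 0.29 and 0.50 in the saline libraries, 0.28 and 0.69 at 15 min, 0.22, 0.41 and 0.61 at 1 h and 0.19, 0.81 and 0.31 at 6 h. Groups overlapped at each time, and the highest library was replicate 2 of the 6 h group. The log2 change of Gsk3b at 6 h was 0.078 (SE 0.17, adjusted p = 0.911), and -0.11 without that library. Tbc1d4 controls the traffic of the glucose transporter GLUT4, and its change was negative at 15 min (-0.029), 1 h (-0.13) and 6 h (-0.15), the last with no overlap between groups (adjusted p = 0.752 in limma).

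FOXO1 and FOXO3 are excluded from the nucleus when AKT phosphorylates them. Foxo1 had log2 signals of -1.75, -1.94 and -1.11 in the saline libraries, -1.33 and -1.13 at 15 min, -1.89, -1.79 and -1.07 at 1 h and -2.06, -1.4 and -1.66 at 6 h. The spread within the saline group and within the 1 h group was larger than the difference between their means. Its log2 change was 0.37 at 15 min (SE 0.31, adjusted p = 0.589), 0.020 at 1 h (SE 0.27, adjusted p = 0.982) and -0.11 at 6 h (SE 0.27, adjusted p = 0.924), or -0.26 at 6 h without replicate 2 of that group. The change of Foxo1 at 6 h was 0.069 without replicate 1 of that group and 0.14 without saline replicate 3. Foxo3 was steadier, with a range of 0.27 log2 units and changes of 0.099, 0.091 and -0.044 at 15 min, 1 h and 6 h.

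Foxo6, a FOXO factor expressed in the hippocampus, varied more between libraries than any other of the 35 genes, with a range of 1.85 log2 units. Log2 signals stood at -3.18, -3.83 and -2.39 in the saline libraries, -3.33 and -2.11 at 15 min, -3.29, -3.67 and -2.17 at 1 h and -3.54, -1.98 and -2.25 at 6 h. High and low libraries occurred in every group. Its log2 change was 0.42 at 15 min (SE 0.62, adjusted p = 0.787), 0.091 at 1 h (SE 0.55, adjusted p = 0.957) and 0.54 at 6 h (SE 0.55, adjusted p = 0.803). Without replicate 3 of the 15 min group the change at 15 min was -0.20, and without replicate 2 of the 6 h group that at 6 h was 0.24. The high libraries were also those with the highest sum of 5 interneuron markers (Gad1, Gad2, Slc32a1, Pvalb and Sst). In the 5 libraries with Foxo6 at -2.39 or higher that sum was 5.03 to 5.49 on the log2 scale, and in the other 6, with Foxo6 at -3.18 or lower, it was 4.36 to 4.68. The 5 high libraries were replicate 3 of each of the 4 groups and replicate 2 at 6 h. All 5 markers had a value in every library, and their summed level after insulin was 4.68 to 5.36 at 15 min, between 4.5 and 5.49 at 1 h and between 4.38 and 5.46 at 6 h, against 4.36 to 5.03 with saline. The sum of 5 astrocyte markers separated the same libraries. It was 4.82 to 5.05 in the 5 high ones and 4.57 to 4.80 in the other 6, a narrow gap. Of these astrocyte markers Gfap alone separated them, whereas Aldh1l1, Slc1a3, Aqp4 and Gja1 did not. Summed levels of the other marker lists did not separate them. Single markers such as Spink8 (pyramidal neurons) and Rgs9 (striatum) also separated them, whereas Pvalb and Slc32a1 of the interneuron list did not. These single markers were named after their values were seen. The part of interneurons or of any other cell type in the spread of Foxo6 was not tested.

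**Figure D3:**
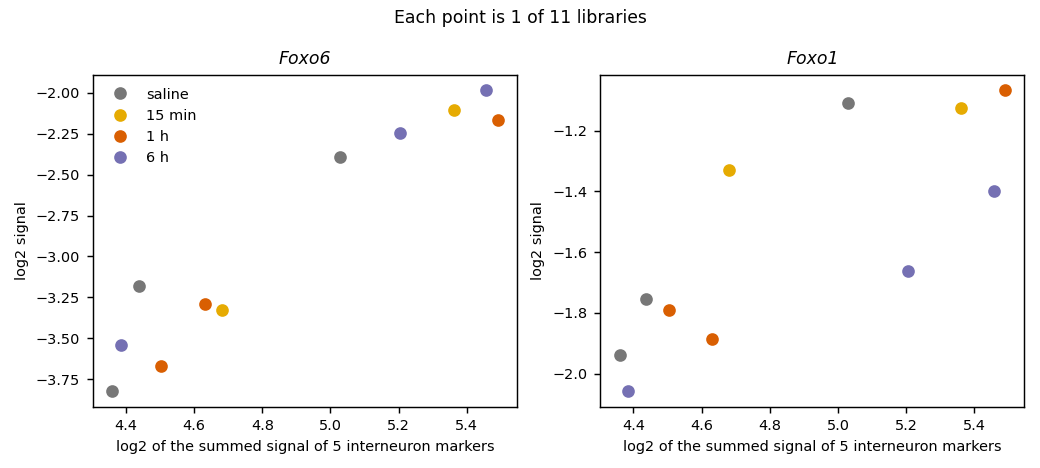
Log2 signal of Foxo6 (left) and Foxo1 (right) against the log2 of the summed signal of 5 interneuron markers, 1 point per library, coloured by group. The 5 libraries with a marker sum of 5.03 or more hold the 5 highest Foxo6 values, -2.39 to -1.98, and come from all 4 groups. A sum of 5 astrocyte markers, not drawn, separates the same libraries by a narrow gap, and of these markers Gfap alone does so.

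TSC1 and TSC2 form the complex that keeps RHEB inactive. Tsc1 had the smallest range of the 35 genes, 0.24 log2 units. Tsc2 had log2 signals of 0.053, -0.060 and 0.052 in the saline libraries, -0.050 and 0.30 at 15 min, 0.021, 0.064 and 0.27 at 1 h and -0.085, 0.60 and 0.19 at 6 h. Replicate 3 at 15 min and at 1 h and replicate 2 at 6 h stood above the other libraries, and groups overlapped at each time. The log2 change of Tsc2 at 6 h was 0.22 (SE 0.16, adjusted p = 0.748), and 0.038 without replicate 2 of that group. The gene overlaps Pkd1 in the RefSeq annotation, and whether reads were counted by strand is not given in the sources used here.

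Rheb, the activator of mTORC1, had the smallest p of the 35 genes at 6 h. Its log2 signals were 0.33, 0.26 and 0.34 in the saline libraries, 0.22 and 0.21 at 15 min, 0.14, 0.23 and 0.23 at 1 h and 0.21, 0.015 and 0.17 at 6 h. All 8 insulin libraries lay below the 3 saline libraries. The log2 change was -0.093 at 15 min (SE 0.083, adjusted p = 0.620), -0.11 at 1 h (SE 0.074, adjusted p = 0.524) and -0.18 at 6 h (SE 0.074, adjusted p = 0.714). Without replicate 2 of the 6 h group the change at 6 h was -0.12. After median centring the changes at 15 min and 1 h were 0.078 and 0.031, and after cyclic loess -0.018 and -0.049.

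The 6 listed genes of the mTOR complexes (Mtor, Rptor, Rictor, Mlst8, Akt1s1 and Deptor) all had negative log2 changes at 15 min and 1 h, none of them past the test. They ran from -0.25 to -0.010 at 15 min and from -0.24 to -0.029 at 1 h. Because the median of all rows was also negative, 4 of the 6 at 15 min and 3 of the 6 at 1 h lay below that median. After median centring of the libraries 3 and 2 of the 6 were negative, and after cyclic loess 4 and 4. At 6 h 5 of the 6 were positive, but 2 of the 6 without replicate 2 of that group. Subunits of mTORC2 outside these 6 did not share one direction. Prr5 had log2 signals of -1.69, -1.96 and -1.68 in the saline libraries, -1.41 and -1.23 at 15 min, -1.15, -1.03 and -1.43 at 1 h and -1.6, -0.97 and -1.23 at 6 h. Every insulin library of Prr5 lay above every saline library, with log2 changes of 0.46, 0.57 and 0.51 at 15 min, 1 h and 6 h (adjusted p = 0.303, 0.15 and 0.688 in limma). Mapkap1 had changes of -0.22, -0.24 and -0.22, and Prr5l of -0.46, -0.61 and -0.68, none past the test (smallest adjusted p = 0.196). These 3 genes were named after their values were seen.

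Mlst8, the subunit shared by both mTOR complexes, lies on chromosome 17 from 24473550 to 24479114 and overlaps Bricd5. Log2 signals of Mlst8 were 1.67, 1.63 and 1.61 in the saline libraries, 1.41 and 1.37 at 15 min, 1.39, 1.26 and 1.55 at 1 h and 1.66, 1.62 and 1.76 at 6 h. All 15 min and 1 h libraries lay below the saline libraries, and the 6 h libraries overlapped them. Compared with saline the log2 change was -0.25 at 15 min (SE 0.089, adjusted p = 0.240), -0.24 at 1 h (SE 0.080, adjusted p = 0.189) and 0.040 at 6 h (SE 0.080, adjusted p = 0.899). After median centring it was -0.078 at 15 min (adjusted p = 0.713) and -0.10 at 1 h (adjusted p = 0.555), and after cyclic loess -0.20 and -0.20. At 6 h Mlst8 stood 0.28 higher than at 1 h (adjusted p = 0.253) and 0.29 higher than at 15 min (adjusted p = 0.233), on the log2 scale. In these 2 comparisons between insulin times 0.0108% and 0.00723% of all rows passed, and 0 of the 35 genes did.

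Akt1s1 encodes an inhibitor of mTORC1 that AKT phosphorylates. Log2 signals stood at 1.56, 1.51 and 1.35 in the saline libraries, 1.34 and 1.18 at 15 min, 1.31, 1.28 and 1.41 at 1 h and 1.52, 1.55 and 1.44 at 6 h. Both 15 min libraries lay below all saline libraries, and the 1 h and 6 h libraries overlapped them. The log2 change of Akt1s1 was -0.21 at 15 min (SE 0.087, adjusted p = 0.289), -0.14 at 1 h (adjusted p = 0.426) and 0.029 at 6 h (adjusted p = 0.927). At 15 min it was -0.043 after median centring and -0.14 without replicate 3 of that group. Deptor, an inhibitor of both complexes, had log2 signals of -2.11, -1.99 and -2.25 in the saline libraries, -2.41 and -2.2 at 15 min, -2.06, -2.29 and -2.31 at 1 h and -2.05, -1.87 and -2.22 at 6 h, with overlap at each time. Its log2 changes were -0.19, -0.10 and 0.073 at 15 min, 1 h and 6 h.

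Mtor, the kinase of both complexes, had log2 signals of -0.11, -0.26 and -0.29 in the saline libraries, -0.40 and -0.38 at 15 min, -0.31, -0.30 and -0.31 at 1 h and -0.29, -0.10 and -0.22 at 6 h. All 15 min and 1 h libraries lay below the saline libraries, by a small margin at 1 h, and the 6 h libraries overlapped them. For Mtor the log2 change was -0.17 at 15 min (SE 0.090, adjusted p = 0.403), -0.090 at 1 h (adjusted p = 0.638) and 0.016 at 6 h (adjusted p = 0.962). At 15 min it was 0.00028 after median centring and -0.081 after cyclic loess. Rptor, the defining subunit of mTORC1, had changes of -0.010, -0.029 and 0.039. Rictor, the defining subunit of mTORC2, had changes of -0.10, -0.20 and -0.17, and its 1 h libraries (0.34, 0.32 and 0.43) all lay below the saline libraries (0.53, 0.47 and 0.70, adjusted p = 0.346 in limma). After median centring the change of Rictor at 1 h was -0.064.

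**Figure D4:**
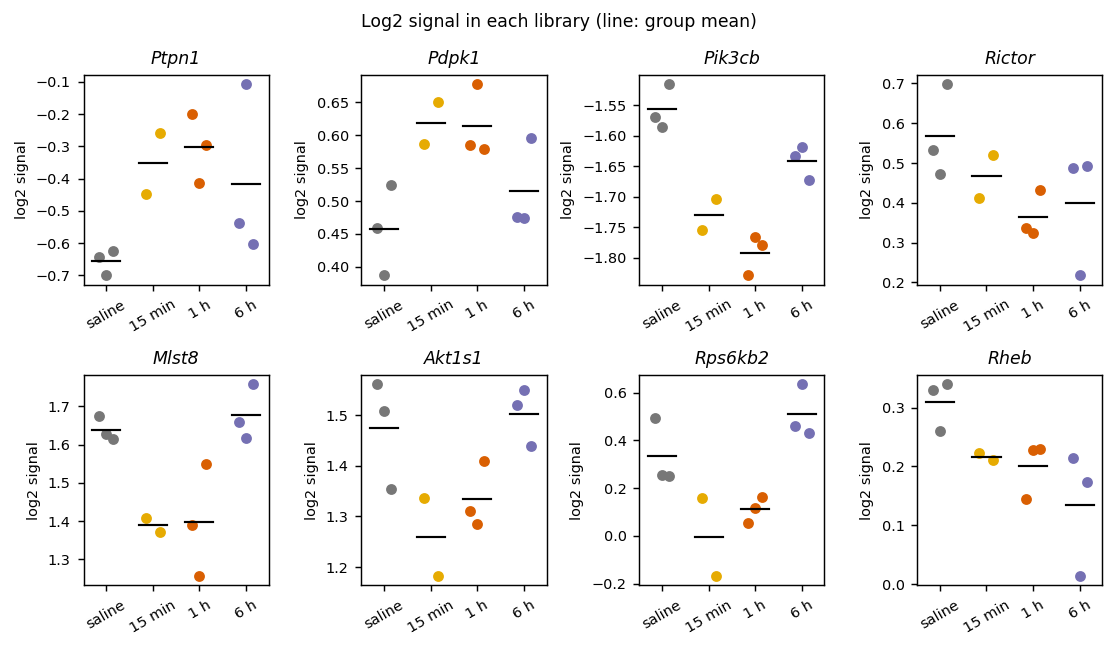
Log2 signal of 8 pathway genes in each of the 11 libraries (points; lines are group means), for saline, then 15 min, 1 h and 6 h after insulin. Ptpn1 lies higher in all insulin libraries than with saline and Rheb lower, whereas Mlst8 and Rps6kb2 lie lower at 15 min and 1 h than with saline and not at 6 h.

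The effectors of mTORC1 are S6 kinases, which promote ribosome function and translation, and repressors that hold the cap-binding initiation factor until they are phosphorylated. Rps6kb2 had the largest negative log2 change of the 35 genes at 15 min. Its log2 signals were 0.49, 0.25 and 0.25 in the saline libraries, 0.16 and -0.17 at 15 min, 0.054, 0.12 and 0.16 at 1 h and 0.46, 0.63 and 0.43 at 6 h. All 15 min and 1 h libraries lay below the saline libraries, and the 6 h libraries overlapped them. The log2 change was -0.34 at 15 min (SE 0.12, adjusted p = 0.240), a fold of 0.792, and -0.22 at 1 h (SE 0.11, adjusted p = 0.359). At 6 h it was 0.18 (SE 0.11, adjusted p = 0.725), or 0.11 without replicate 2 of that group. The change at 15 min was -0.17 without replicate 3 of that group, where Deptor had the most negative one (-0.30). Without saline replicate 3 the most negative was that of Pik3cd (-0.41). After median centring Rps6kb2 had a change of -0.16 at 15 min (adjusted p = 0.626) and -0.081 at 1 h, and at 1 h it was -0.14 without saline replicate 1. All 3 libraries at 6 h stood above all 5 libraries at 15 min and 1 h, with log2 differences of 0.51 from 15 min (SE 0.12, adjusted p = 0.187) and 0.40 from 1 h (SE 0.11, adjusted p = 0.239).

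Rps6kb1, the best studied S6 kinase, had log2 signals of 0.46, 0.40 and 0.62 in the saline libraries, 0.52 and 0.51 at 15 min, 0.34, 0.35 and 0.37 at 1 h and 0.44, 0.24 and 0.33 at 6 h. The 3 libraries at 1 h lay below the saline libraries and below both 15 min libraries. In the fit Rps6kb1 had a log2 change of 0.023 at 15 min (adjusted p = 0.927), -0.14 at 1 h (SE 0.080, adjusted p = 0.447) and -0.16 at 6 h (SE 0.080, adjusted p = 0.721). After median centring the change at 1 h was 0.0020. The gene overlaps Rnft1 in the annotation. Of the translation repressors, Eif4ebp1 had log2 signals of -4.0, -4.31 and -4.16 in the saline libraries, -4.08 and -3.94 at 15 min, -3.86, -4.14 and -3.71 at 1 h and -3.65, -4.15 and -4.06 at 6 h, with overlap at each time and changes of 0.14, 0.25 and 0.20. Eif4ebp2, the repressor studied most in brain, ranged over 1.08 log2 units, and the 6 h group held both its lowest (replicate 1, -1.63) and its highest library (replicate 2, -0.54). Its 15 min libraries (-1.19 and -1.0) and 1 h libraries (-1.22, -1.17 and -1.23) lay above the saline libraries (-1.25, -1.48 and -1.29), with an adjusted p of 0.663 at 15 min and 0.816 at 1 h in limma.

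One library stood apart within its group. Replicate 2 of the 6 h group was the farthest of the 3 from its group mean for 20 of the 35 genes, against 7 for replicate 1 and 8 for replicate 3. Over all rows the median distance from the group mean was 0.20 in that library on the log2 scale, against 0.14 and 0.13 in the other 2. Without it the change at 6 h moved by over 1.5 times for 19 genes. A further 6 had the opposite sign at 6 h (Gsk3b, Tsc1, Mtor, Rptor, Deptor and Eif4ebp2), and 0 of the 35 passed the limma test. Leaving out any other saline or 6 h library moved the change at 6 h by over 1.5 times for 9 to 14 genes. It gave a further 1 to 5 the opposite sign.

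Other genes of the pathway were taken from a list of 71, of which 69 were in the table and tested. At 15 min 1 rose and 0 fell, where 0.0434% of all rows were called higher and 0.195% lower. At 1 h 1 rose and 1 fell, where 0.13% of all rows were called higher and 0.747% lower. At 6 h 0 of the 69 passed the test. At an unadjusted p of limma below 0.05, 8 were higher and 10 lower at 15 min, or 26.1%, against 15.1% of all rows. At 1 h 9 were higher and 17 lower, or 37.7%, against 15.7% of all rows. At 6 h 6 were higher and 4 lower, or 14.5%, against 6.98% of all rows. The list was chosen with earlier results known, so these shares are a description. The median log2 change of the 69 was -0.018, -0.049 and -0.0034 at 15 min, 1 h and 6 h, beside -0.14, -0.11 and -0.039 over all rows. Sgk1, a kinase related to AKT that mTORC2 activates and steroids induce, rose at 15 min and 1 h. Log2 signals of Sgk1 were -0.74, -0.71 and -0.038 in the saline libraries, 0.72 and 0.56 at 15 min, 0.45, 0.61 and 0.50 at 1 h and 0.28, 0.32 and 0.17 at 6 h. All 8 insulin libraries lay above the 3 saline libraries, of which replicate 3 was well above the other 2. The log2 change of Sgk1 was 1.13 at 15 min (SE 0.18, adjusted p = 0.0468), 1.01 at 1 h (SE 0.16, adjusted p = 0.0239) and 0.75 at 6 h (SE 0.16, adjusted p = 0.467). Of 19 alternative settings, 5 kept the call at 15 min and 12 that at 1 h. The call at 15 min was kept in 1 of 11 runs that left out 1 library, the run without saline replicate 3 (adjusted p = 0.00750), and the adjusted p of the other runs was 0.0511 to 0.217. The call at 1 h was lost without any 1 of the 3 libraries at 1 h (adjusted p = 0.0880, 0.0990 and 0.0556), without saline replicate 1 (0.105) and without saline replicate 2 (0.0843).

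Prkab1, a regulatory subunit of AMP-activated protein kinase, which acts against mTORC1, fell at 1 h. Log2 signals stood at -0.080, -0.027 and -0.19 in the saline libraries, -0.45 and -0.53 at 15 min, -0.46, -0.53 and -0.52 at 1 h and -0.13, -0.13 and -0.18 at 6 h. The 15 min and 1 h libraries all lay below the saline libraries, and the 6 h libraries overlapped them. For Prkab1 the log2 change was -0.39 at 15 min (SE 0.082, adjusted p = 0.0970), -0.40 at 1 h (SE 0.073, adjusted p = 0.0386) and -0.052 at 6 h (SE 0.073, adjusted p = 0.855). Of 19 alternative settings 4 kept the call at 1 h. It was kept in 1 of 11 runs that left out 1 library, the run without replicate 2 of the 6 h group (adjusted p = 0.0282), and the adjusted p of the other runs was 0.0608 to 0.164. After median centring its log2 change at 1 h was -0.27 (adjusted p = 0.209). At 6 h Sesn2, a stress-induced inhibitor of mTORC1, had the smallest p of the 69, with a log2 change of 0.64 (SE 0.13, adjusted p = 0.452). Ddit4, an inhibitor of mTORC1 that acts through TSC, and the pseudokinase Trib1 were chosen after their values were seen. The log2 signals of Ddit4 were 2.95, 2.92 and 3.32 in the saline libraries, 3.89 and 3.55 at 15 min, 3.85, 3.79 and 3.59 at 1 h and 3.63, 3.84 and 3.55 at 6 h, all insulin libraries lying above the saline libraries, and its log2 change at 1 h was 0.68 (SE 0.14, adjusted p = 0.0539). Trib1 had a log2 change of 0.75 at 1 h (SE 0.16, adjusted p = 0.0612). Without replicate 2 of the 6 h group both had an adjusted p below the threshold at 1 h (0.0404 for Ddit4 and 0.0125 for Trib1).

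**Figure D5:**
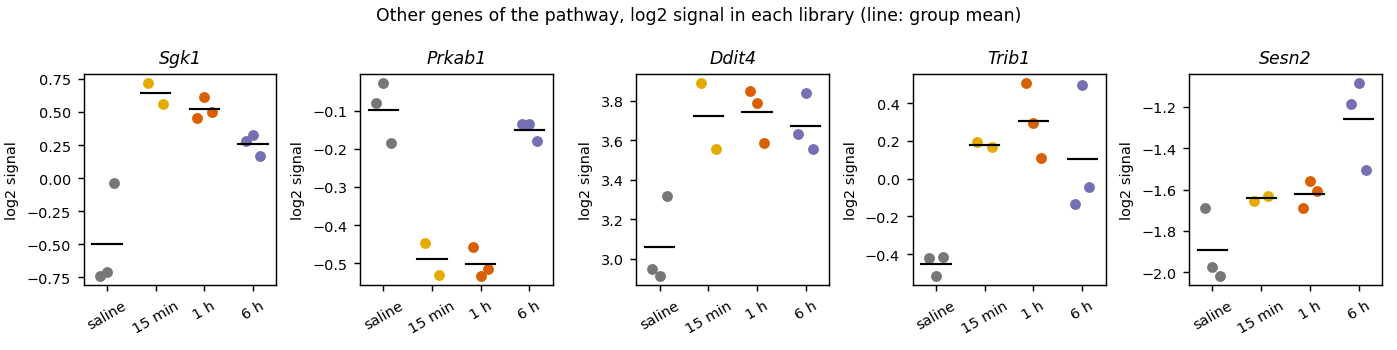
Log2 signal of 5 other genes of the pathway in each of the 11 libraries (points; lines are group means), for saline, then 15 min, 1 h and 6 h after insulin. Sgk1 and Ddit4 lie above the saline libraries in all 8 insulin libraries, whereas Prkab1 lies below them at 15 min and 1 h and overlaps them at 6 h.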

How the data were processed

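The 11 hippocampus libraries were prepared with a TruSeq stranded kit for total RNA and sequenced in paired-end mode, per the labels' protocols. The authors deposited 1 table of log2 signals by gene symbol, in which missing values are marked. GRCm38, bcl2fastq and Partek 6.7 appear in the submitters' processing notes, with no role. Aligner, counter and annotation: not given in the sources used here. Every library has the same minimum, median and maximum, as after quantile normalization over the rows with a value. No depth can be read from such values, so counting intervals are absent.

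The 35 genes and the other lists were chosen with earlier results of these data known. Rows in the lowest 40% by mean were left out, which kept 27721 rows. A linear model of the 4 groups was fitted in R 4.3.3 with limma 3.58.1, with a mean-variance trend, two-sided tests and Benjamini-Hochberg adjustment at 0.05 over all rows tested. Missing values stayed missing. Values per library are given for the 4 genes with the smallest p in each comparison with saline and for a core of 13 genes, and Foxo6 was added after its values were seen. The tests were checked on simulated data. Alternatives changed the filter, scaling, pseudocount (0.1), groups fitted, trend and replicate block, and left out each library in turn. Promoters and coordinates are from RefSeq, GRCm38.p6. Of the 35 genes, 21 overlap another annotated gene.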

Additional observations from a re-analysis of the deposited data

How the results depend on the processing

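None of the 35 genes passed the limma test in any of 1995 recomputed values (35 genes, 3 comparisons and 19 settings). The sign of the change differed from the reported one in 94 of these values, and 56 of 105 pairs of gene and comparison had no change of sign. The median log2 change of the 35 genes was 0.18 at 15 min and 0.13 at 1 h after median centring, and 0.094 and 0.063 after cyclic loess, where both scalings also shifted the median of all rows (to 0.036 and 0.034 after centring). Over all rows, 66 were called at 15 min. That count was 37 after cyclic loess, 1 with only the 2 groups compared, 114 without the mean-variance trend and 38 with the replicate block. Leaving out 1 library gave 5 to 103 rows, namely 6 and 5 without 15 min replicates 1 and 3, 33, 36 and 40 without 1 h replicates 1, 2 and 3, 40, 103 and 41 without those of the 6 h group, and 18, 21 and 19 without those of the saline group. At 1 h 243 rows were called, 138 with only the 2 groups compared and 159 with the replicate block. Leaving out 1 library gave 42 to 477, namely 42 and 63 without 1 h replicates 1 and 2, 59, 86 and 65 without saline replicates 1, 2 and 3, 155 without replicate 3 and 477 without replicate 2 of the 6 h group. Of the rows called at 15 min 18.2% were higher, and 43.5% after median centring or 37.8% after cyclic loess. At 1 h the shares were 14.8%, 46.8% and 32.0%. Of the other pathway genes, 0 were called at 15 min without the filter on low values, with only the 2 groups compared, without the trend or with the replicate block, and 0 to 1 when 1 library was left out. At 1 h 1 was called after cyclic loess, with only the 2 groups compared and without the trend, 0 with the replicate block, and 0 to 4 when 1 library was left out. Where the construction of a setting does not show it (fewer libraries), the cause was not tested.

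Nothing in the labels pairs libraries by replicate number. Deviations from the group means correlated between -0.056 and 0.24 in the 15 pairs of libraries with the same number (median 0.087, with 7 over 0.1). In the 30 pairs with different numbers they correlated between -0.25 and 0.25 (median -0.061, with 5 over 0.1), and 6 of 11 libraries correlated best with their own number. These pairs are not independent, because deviations sum to 0 within a group. The 2 libraries at 15 min therefore mirror each other, and -0.25 and 0.25 are their correlations with the same library. The replicate block left 0 of the 35 genes called. Groups of 2 or 3 libraries limit what can be seen: the 95% interval of a change had a median half-width of 0.26 at 15 min and 0.24 at 1 h and 6 h on the log2 scale. Calls at an adjusted p needed more than an interval without 0, and changes above that half-width, such as 0.35 for Ptpn1 at 1 h and -0.34 for Rps6kb2 at 15 min, did not pass.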
